A study of Mus musculus with 8 samples.

Results

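Crush and sham were compared at 1 week after surgery in myeloid cells of the mouse sciatic nerve, read as single-cell RNA. The comparison took 4 hashtag samples, a crush female, a crush male, a sham female and a sham male, with 331, 605, 63 and 106 cells. These 1105 cells were those of 4391 barcodes of the 2 libraries of 1 week, and of 9133 barcodes in the whole series, that had at least 500 genes, under 10% mitochondrial counts and a single positive hashtag antibody, with a crush or sham label. All mice were C57BL/6JolaHsd, bought at 7 weeks of age. In the crush group the left sciatic nerve was exposed and pressed with forceps, and in the sham group it was exposed only. Every mouse was perfused to wash blood out of the vessels, and short pieces of nerve were digested and sorted for CD45+/CD11b+ cells, leaving out Ly6G+ neutrophils.

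A crushed nerve keeps its outer sheath while the axons beyond the injury degenerate, and its macrophages clear axon and myelin debris before the axons regrow. Myelin is rich in cholesterol and other lipids, so a macrophage that takes it up must break it down in the lysosome, store the lipid as esters or export it. An uninjured nerve holds resident macrophages of its outer sheath, which carry scavenger receptors such as CD163, CD206 (encoded by Mrc1) and LYVE1, and resident macrophages among the axons, which share genes with microglia.

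The crush female, the crush male and the sham male were in the crush library, whereas the sham female was in the library of the partial sciatic nerve ligation (PSNL) samples. Sex of the sham samples and library therefore coincided. Neither the labels nor the methods state how many mice a hashtag stands for, so p-values measure the spread between hashtag samples, which may in part be technical. The 4 samples held from 246983 UMIs (sham female) to 3538686 UMIs (crush male). Xist was at 1077 and 1336 CPM in the females and at most 0.283 CPM in the males, and Ddx3y at most 1.35 CPM in the females, so the hashtags separated the sexes as labelled. Cells of the sham samples were shallower (medians of 3089 and 3687 UMIs) than those of the crush samples (5223 and 5558 UMIs) and had a higher median mitochondrial share (4.55% in the sham female and 3.20% in the crush female, with both sham samples above both crush samples). The part of these differences in the results was not tested. Ptprc (CD45) and Itgam (CD11b), the genes of the sort, were found in all 4 samples, at 534 to 944 and 186 to 312 CPM. Ly6g had 3 UMIs in the crush female and none in the other samples.

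Counts were summed per hashtag sample and are given as CPM (UMIs of a gene relative to the library total, after TMM scaling), and changes as the log2 difference, crush minus sham, with its SE from the quasi-likelihood fit of edgeR. Of 8632 genes tested, 25 were higher in crush and 21 were lower at an adjusted p under 0.05, which is 0.29% and 0.243% of the genes. At an unadjusted p under 0.05 there were 929 genes. The median change of all genes was -0.02. In a count of the same samples without a fit, both crush samples were above both sham samples for 20.2% of the genes and below both for 21%. The crush and sham samples were apart in this way for all 46 called genes. The fit used the same counts, so this is no independent support for the calls. An exact permutation test of 2 samples against 2 cannot go below p = 0.33, so the calls rest on a spread that the fit pooled over the 6 samples of 1 week, the PSNL female and male included. With the 4 compared samples alone, Cd163 was the only gene to pass, and 750 genes had an unadjusted p under 0.05. With the library as a term the fit called 6 genes, and 4 of the 46 were among them, including Gpnmb, Ctsd and Syngr1. All 46 kept their direction in both of these fits. Cd163, Lyve1, Igfbp4, Gpnmb and Ctsd were called whichever of the 4 samples was left out. Of the 46 genes, 12 were called without the crush male, 9 without the sham female, 14 without the sham male and 43 without the crush female.

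**Figure D1:**
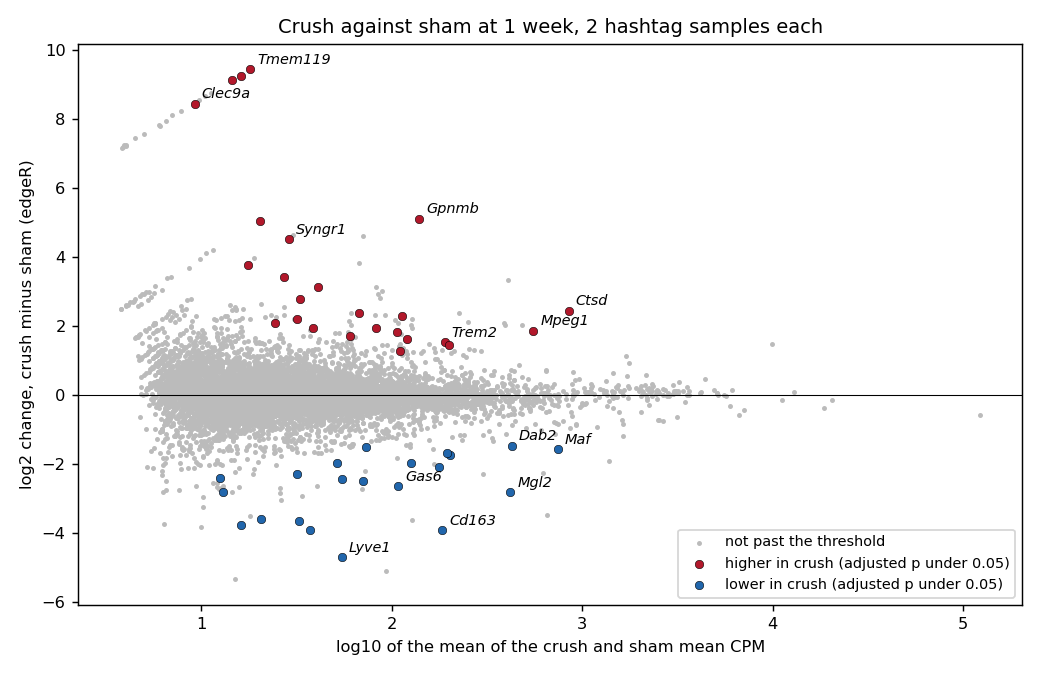
Log2 change (crush minus sham, vertical axis) against the log10 of the mean CPM of the groups (horizontal axis) for the 8632 genes tested; each point is a gene. The 25 genes that were higher are in red and the 21 that were lower in blue, and the streaks of points above a log2 change of 7 are genes with no UMI in either sham sample, whose fitted change has no upper limit.

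The resident macrophage genes had the lowest median change of the gene lists with at least 4 tested members. Of 24 genes in the resident macrophage list, 21 could be tested, 6 were lower, none was higher, and 18 had both crush samples below both sham samples. Over all genes tested, 0.243% were lower and 21% had both crush samples below both sham samples. The median log2 change of the list was -2.14, beside -0.02 for all genes. Leaving out 1 sample at a time, between 3 and 10 members were called lower and the median lay between -2.41 and -1.67, whereas with the library as a term no member was called and the median was -1.77. The summed level of the list was 2707 and 2662 CPM in the female and male crush samples, against 9572 and 5970.3 CPM for sham (plain totals). In sums of this kind, fewer cells of a type and less RNA per cell cannot be told apart.

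Cd163 (chr6:124304656-124330527, GRCm38), the scavenger receptor for haemoglobin bound to haptoglobin, was at 20.5 and 24.0 CPM in the female and male crush samples, against 412 and 283 CPM in the female and male sham samples. The lowest sham value was over 10 times the highest crush value, and the log2 change was -3.93 ± 0.35 (SE, adjusted p = 0.00865). Lyve1, a receptor for hyaluronan, was at 2.18 and 4.80 CPM in the female and male crush samples, against 137 and 74.4 CPM in the female and male sham samples, on 5 and 18 UMIs after crush. The log2 change of -4.71 ± 0.46 (SE, adjusted p = 0.00865) was the largest fall among the called genes. Igfbp4, a secreted binding protein of insulin-like growth factors, was at 20.9 and 20.3 CPM after crush against 142 and 98.6 CPM after sham, and these pairs did not overlap either (log2 change -2.49, SE 0.28, adjusted p = 0.00865).

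Gas6, which bridges phosphatidylserine on dying cells to the TAM receptors of phagocytes, was at 32.3 and 24.6 CPM after crush against 249 and 124 CPM after sham (log2 change -2.66, SE 0.40, adjusted p = 0.0376). Maf encodes a transcription factor of resident macrophages and was at 337 and 407 CPM after crush against 1417 and 815 CPM after sham (log2 change -1.58, SE 0.26, adjusted p = 0.0376). Dab2, a clathrin adaptor of receptor uptake, was at 231 and 216 CPM after crush against 759.9 and 496 CPM after sham (log2 change -1.48, SE 0.23, adjusted p = 0.0307). For Gas6, Maf and Dab2 the sham female was the highest sample and the sham male stood between it and the crush pair.

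Mrc1, Pf4, Folr2, F13a1 and Cbr2 missed the threshold. Mrc1, the mannose receptor, was at 271 and 154 CPM in the female and male crush samples, against 1327 and 726 CPM in the female and male sham samples, a log2 change of -2.26 ± 0.41 (SE, adjusted p = 0.0942). Pf4, the platelet factor 4 chemokine that resident macrophages also make, was at 141 and 71.3 CPM after crush against 1580.0 and 816 CPM after sham (log2 change -3.49, adjusted p = 0.0855). Folr2, a folate receptor, had a log2 change of -2.74 (adjusted p = 0.0554), F13a1, a chain of coagulation factor XIII, -2.31 (adjusted p = 0.0949), and Cbr2, a carbonyl reductase, -3.63 (adjusted p = 0.175). In each of these genes the groups did not overlap, but the sham female was well above the sham male.

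The share of cells with a UMI was taken as a further description. After thinning each cell to 1500 UMIs, which left 297, 536, 57 and 96 cells and dropped 34, 69, 6 and 10 shallower cells of the crush female, crush male, sham female and sham male, a Cd163 UMI was found in 3.70% and 1.87% of the crush cells and 33.3% and 33.3% of the sham cells. The 95% exact binomial intervals were 1.86 to 6.53% and 0.898 to 3.40% after crush and 21.4 to 47.1% and 24.0 to 43.7% after sham. Without thinning the shares were 6.65% and 4.46% of the crush cells and 47.6% and 42.5% of the sham cells. Mrc1 UMIs were in 22.9% and 14.6% of the crush cells and 64.9% and 46.9% of the sham cells, and Maf UMIs in 24.2% and 25.9% of the crush cells and 70.2% and 45.8% of the sham cells. As a reference for free RNA, thinned cells with a UMI of Ccr3, Siglecf or Il5ra (eosinophil genes) that were outside the macrophage gate had Cd163 in 0 of 22 and Mrc1 in 0 of 22 crush cells. Other genes were found in these cells, with H2-Eb1 in 17 of 22, Bst2 in 10 of 22 and Flt3 in 4 of 22. Whether this was free RNA or RNA of the cells themselves was not tested. The exact interval of 0 of 22 reaches 15.4%, above both crush Cd163 shares, so this reference is too small to judge levels that low. Before thinning there were 67 such crush cells with a median of 1029 UMIs, most of which were too shallow to be kept, and 525 gated crush cells with a median of 5834 UMIs. Intervals cover counting error only, and shares over cells carry no test between 2 and 2 samples.

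**Figure D2:**
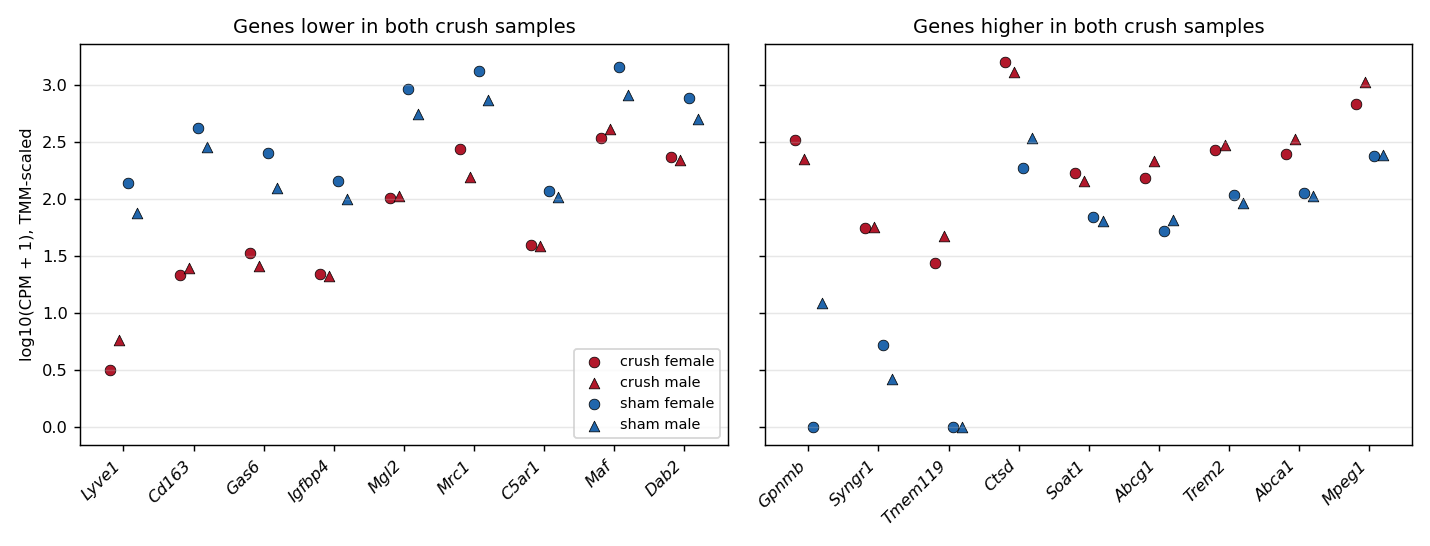
Level of 18 genes in each hashtag sample, as log10(CPM + 1) on TMM-scaled totals; circles are females and triangles males, crush in red and sham in blue. In the left panel every crush point lies below every sham point of the same gene, and in the right panel every crush point lies above, with Tmem119 at 0 in both sham samples.

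In the complement list 2 of 10 tested members were lower, beside 0.243% of all genes tested. C5ar1, the receptor of the complement fragment C5a, was at 38.4 and 37.4 CPM in the female and male crush samples, against 116 and 102 CPM in the female and male sham samples. The pairs did not overlap, and the log2 change was -1.51 ± 0.22 (SE, adjusted p = 0.0276). No member of the list was higher, and the list's median was -0.26. Mgl2, a galactose-type lectin of macrophages and dendritic cells, was at 101 and 105 CPM after crush against 923 and 553 CPM after sham (log2 change -2.83, SE 0.37, adjusted p = 0.0298). It was the only call among 14 tested genes of the alternative activation list, beside 0.29% higher and 0.243% lower over all genes tested. Hpgd, the enzyme that inactivates prostaglandins, was at 50.6 and 48.8 CPM after crush against 275 and 134 CPM after sham (log2 change -1.97, SE 0.33, adjusted p = 0.0410). Id3, an inhibitor of basic helix-loop-helix factors, was at 3.49 and 3.74 CPM after crush against 12.9 and 32.3 CPM after sham, on 3 and 20 sham UMIs (log2 change -2.82, SE 0.46, adjusted p = 0.0365). Serpinf1, a secreted serpin, and Cmah, which hydroxylates sialic acid, had log2 changes of -3.67 and -3.91. Psd3 and Bank1 fell by 2.44 and 2.31 on the log2 scale. Other called falls were Dnajb1, Lilra5, Chp2, Cd81, Itsn1 and Igfbp6, with log2 changes from -3.79 for Lilra5 to -1.70 for Cd81. These 6 were outside the rule for named genes and were chosen after their values were seen. In the sham female Dnajb1 was in 4 cells, and 2 of them held 70.5% of its 88 UMIs. Without the 2 highest cells of each sample, the plain CPM of Dnajb1 was 105 and 143 in the female and male sham samples. In the female and male crush samples it was then 92.2 and 74.6. Igfbp6 had 5 UMIs in 2 cells of the sham female.

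In the iron and haem list, Cd163 was the only call among 11 tested genes, 7 members had both crush samples below both sham samples, and the median was -0.78. Over all genes tested, 0.243% were called lower and 21% lay below in this way. Hmox1, the haem oxygenase, was at 91.2 and 85.7 CPM after crush against 266 and 186 CPM after sham (log2 change -1.33, adjusted p = 0.0561). Blvrb, which reduces biliverdin, was at 48.9 and 41.6 CPM after crush against 210.4 and 126 CPM after sham (log2 change -1.85, adjusted p = 0.0660). The groups of both genes were apart, yet neither passed the threshold. A single cell held 48 of the 62 Hmox1 UMIs of the sham female. Without that cell the plain CPM of the sample was 56.7, below both crush samples.

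In the lipid-associated macrophage list Gpnmb, Ctsd and Trem2 rose. Gpnmb (chr6:49036546-49070929, GRCm38), a lysosomal glycoprotein of macrophages that have taken up lipid, was at 323 and 223 CPM in the female and male crush samples, against 0 and 11.3 CPM in the female and male sham samples. Its UMIs numbered 741 and 834 after crush and 0 and 7 after sham, and the log2 change was 5.09 ± 0.51 (SE, adjusted p = 0.00865). Ctsd (chr7:142375911-142388038, GRCm38), the protease cathepsin D, was at 1571 and 1297 CPM in the female and male crush samples, against 185 and 338 CPM in the female and male sham samples. It was the most abundant of the called rises, with each crush sample at over 3 times each sham sample and a log2 change of 2.43 ± 0.27 (SE, adjusted p = 0.00933). Trem2, a lipid receptor of macrophages and microglia, was at 267 and 294 CPM after crush against 107 and 90.5 CPM after sham (log2 change 1.52, SE 0.22, adjusted p = 0.0276). These 3 genes were the calls among the 17 tested members of the lipid-associated macrophage list, beside 0.29% called higher over all genes tested. Both crush samples were above both sham samples for 10 members, beside 20.2% of all genes tested, and the median was 0.53. With the cells assigned by HTODemux no member was higher, 1 was lower and the median turned to -0.08, and no member was called with the 4 compared samples alone or with the 15 week samples added. Trem2 was called without the crush female, but not without the crush male, the sham female or the sham male (edgeR adjusted p = 0.0530, 0.0778 and 0.122).

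Gpnmb UMIs were in 9.43% and 7.84% of the crush cells and 0% and 3.12% of the sham cells after thinning, and in 77 of 497 gated crush cells against 0 of 22 of the eosinophil-gene cells. The exact interval of 0 of 22 reaches 15.4%, above the 9.43% and 7.84% of the crush cells. Ctsd UMIs were in 41.4% and 41.4% of the crush cells and 17.5% and 30.2% of the sham cells, with 5 of 22 of the eosinophil-gene cells. The share with a Trem2 UMI differed little, at 21.9% and 20.3% of the crush cells and 19.3% and 17.7% of the sham cells, within each other's intervals (17.3 to 27.0% in the crush female and 10.0 to 31.9% in the sham female). Within macrophage-gated cells, Trem2 was in 60 of 161 and 115 of 336 of the female and male crush cells, and in 7 of 46 and 16 of 65 of the female and male sham cells.

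The other members of that list did not pass. Spp1, which encodes osteopontin, was at 1084 and 408 CPM in the female and male crush samples, against 73.0 and 76.0 CPM in the female and male sham samples. The crush pair was above the sham pair, with a log2 change of 3.32 ± 0.55 (SE, adjusted p = 0.137). A single cell held 56.4% of the Spp1 UMIs of the crush female, another 44.5% of those of the crush male, and another 85.1% of those of the sham male. Plin2, a coat protein of lipid droplets, was at 279.6 and 294 CPM after crush against 107 and 139 CPM after sham (log2 change 1.19, adjusted p = 0.0561). Lgals1, galectin 1, was at 446 and 351 CPM after crush against 859 and 776 CPM after sham (log2 change -1.03, adjusted p = 0.0561), and was the member with both crush samples below both sham samples. Lgals3 (1176 and 784 CPM after crush against 781 and 802 CPM after sham), Fabp5 (648 and 282 CPM after crush against 318 and 723 CPM after sham) and Atf3 (355 and 159.8 CPM after crush against 193 and 411 CPM after sham) overlapped between the groups. Itgax, the integrin CD11c, was at 134 and 101 CPM after crush against 64.4 and 58.2 CPM after sham (log2 change 0.96, adjusted p = 0.336).

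Of the cholesterol genes, Abca1, Abcg1, Soat1 and Scd2 rose. Abca1 and Abcg1 encode the transporters that pass cholesterol to lipoproteins. Abca1 (chr4:53030787-53159895, GRCm38) was at 247 and 334 CPM in the female and male crush samples, against 112 and 105 CPM in the female and male sham samples, a log2 change of 1.43 ± 0.23 (SE, adjusted p = 0.0318). Abcg1 was at 152 and 212 CPM in the female and male crush samples, against 51.5 and 64.7 CPM in the female and male sham samples, a log2 change of 1.61 ± 0.27 (SE, adjusted p = 0.0376). Both genes had the crush pair apart from the sham pair, with the crush male highest. Soat1, which makes cholesterol esters, was at 169 and 143 CPM after crush against 68.7 and 63.1 CPM after sham (log2 change 1.26, SE 0.22, adjusted p = 0.0472), and Scd2, a fatty acid desaturase, was at 64.1 and 60.3 CPM after crush against 12.9 and 17.8 CPM after sham (log2 change 1.93, SE 0.30, adjusted p = 0.0301). Of 13 tested members of the cholesterol list these 4 were higher and none was lower, 9 had both crush samples above both sham samples, and the median was 1.26. Over all genes tested, 0.29% were higher and 20.2% had both crush samples above both sham samples. The 4 calls were lost with the library as a term, and no member of the list was called without the crush male, the sham female or the sham male, whereas 7 were higher and 1 lower without the crush female. No member was called with HTODemux, with the 4 compared samples alone or with the 15 week samples added. The median stayed between 0.50 (with HTODemux) and 1.60 over the 20 alternatives.

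Npc1, which moves cholesterol out of the lysosome, was at 87.7 and 76.9 CPM after crush against 21.5 and 33.95 CPM after sham (log2 change 1.46, adjusted p = 0.0566). Mylip, a sterol-responsive ubiquitin ligase, was at 79.8 and 109 CPM after crush against 38.6 and 16.2 CPM after sham (log2 change 2.02, adjusted p = 0.0660). Apoe, the apolipoprotein that accepts exported cholesterol, was at 11495 and 17638 CPM after crush against 6955 and 3589 CPM after sham (log2 change 1.47, adjusted p = 0.383). In all 3 of these genes both crush samples were above both sham samples, and none passed the threshold.

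The 250 bases before the RefSeq start of Gpnmb and Abca1, genes that rose together, and of Cd163, which fell, are shown for their sequence context (RefSeq, GRCm38.p6, each read 5′ to 3′ on the strand of its gene). Capitals mark matches, on either strand, to an E-box (CACGTG), an AP-1 site (TGANTCA), a PU.1 site (GAGGAAGT) or a Maf half-site (TGCTGA).
Gpnmb, chr6:49036268-49036517, plus strand: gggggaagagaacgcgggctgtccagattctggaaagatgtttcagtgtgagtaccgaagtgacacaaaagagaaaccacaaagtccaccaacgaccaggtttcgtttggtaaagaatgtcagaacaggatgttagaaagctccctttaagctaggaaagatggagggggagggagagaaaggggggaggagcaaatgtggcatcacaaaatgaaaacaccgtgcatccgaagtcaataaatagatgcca
Abca1, chr4:53159896-53160145, minus strand: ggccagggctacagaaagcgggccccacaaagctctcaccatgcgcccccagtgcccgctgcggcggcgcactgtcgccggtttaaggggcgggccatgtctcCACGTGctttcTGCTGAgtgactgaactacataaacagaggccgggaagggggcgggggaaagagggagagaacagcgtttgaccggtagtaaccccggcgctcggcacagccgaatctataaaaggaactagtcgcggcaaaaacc
Cd163, chr6:124304401-124304650, plus strand: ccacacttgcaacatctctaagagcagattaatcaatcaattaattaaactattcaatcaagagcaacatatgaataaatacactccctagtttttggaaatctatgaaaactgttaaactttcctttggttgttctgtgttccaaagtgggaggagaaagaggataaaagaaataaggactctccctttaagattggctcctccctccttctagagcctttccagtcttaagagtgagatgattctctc
Abca1 held 1 E-box and 1 Maf half-site, 147 and 136 bases before its RefSeq start. Gpnmb and Cd163 held none of these letters in the window. Of 32851 windows of the same length, 6.02% held the E-box, 6.75% the AP-1 site, 2.44% the PU.1 site and 16.1% the Maf half-site. A match is a description of the letters and not of binding.

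Of the microglia-like genes of endoneurial macrophages, 2 of 13 tested members were higher, Tmem119 and Trem2, and none was lower. The list as a whole had a median of 0.03, with 6 members above and 1 below sham in both samples. Over all genes tested, 20.2% lay above and 21% below in this way, and 0.29% were called higher. Tmem119, a membrane protein known from microglia, had 60 and 173 UMIs in the crush female and male and none in either sham sample. Against a floor of 3 UMIs over the sham pair, with UMIs taken as independent, it was at least 11.5-fold higher (edgeR adjusted p = 0.0382). Its crush UMIs were held by 34 and 80 cells. A UMI was found in 10.3% and 13.2% of the crush cells and 0% and 0% of the sham cells without thinning; by the floor of 3 cells, the counts of 0 allow up to 4.76% and 2.83%. After thinning the crush shares were 4.38% and 5.78%, with 0 of 22 of the eosinophil-gene cells, whose exact interval reaches 15.4%. The exact intervals of the sham counts of 0 then reach 6.27% in the female, above both crush shares, and 3.77% in the male, below both.

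Olfml3, a secreted protein, was at 21.8 and 49.9 CPM after crush against 4.29 and 6.47 CPM after sham (log2 change 2.64, adjusted p = 0.209). Cx3cr1, the fractalkine receptor, was at 267 and 376 CPM after crush against 219 and 90.5 CPM after sham (log2 change 1.14, adjusted p = 0.416). In both genes the crush pair was above the sham pair and the crush male was highest, but neither passed. Leaving out a sample gave 4 higher members without the crush female, 1 without the crush male, 1 without the sham female and 0 without the sham male, and the median was 0.82 without the sham female and -0.13 without the sham male.

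Further rises were in genes outside these groups. Syngr1, a vesicle membrane protein, was at 54.1 and 55.2 CPM in the female and male crush samples, against 4.29 and 1.62 CPM in the female and male sham samples. It rested on 1 UMI in each sham sample, and the ratio of the summed counts was 24.5 with a 95% counting interval of 6.74 to 203 (edgeR adjusted p = 0.00865). Tmem86a, which hydrolyses lysoplasmalogens, was at 60.6 and 84.6 CPM after crush against 12.9 and 6.47 CPM after sham (log2 change 3.12, SE 0.40, adjusted p = 0.0183). Pmepa1, a target and inhibitor of TGF-β signalling, was at 130.4 and 242 CPM after crush against 47.2 and 33.95 CPM after sham (log2 change 2.27, SE 0.37, adjusted p = 0.0376). Havcr2, which encodes TIM-3, was at 45.4 and 60.8 CPM after crush against 8.59 and 12.9 CPM after sham (log2 change 2.19, SE 0.38, adjusted p = 0.0410), and AU020206, a long non-coding RNA, was at 87.7 and 135 CPM after crush against 30.1 and 17.8 CPM after sham (log2 change 2.36, SE 0.36, adjusted p = 0.0298). In all of these the groups were apart. Called rises outside the rule for named genes included Mpeg1 (perforin-2, log2 change 1.86), Abi3 (3.41), Itgb5 (1.82), Cyfip2 (2.07), Hvcn1 and Kctd14. The last of these rested on 1 sham UMI and Hvcn1 on 2, with ratios of 36.6 (interval 6.51 to 1452) and 14.5 (interval 3.95 to 120.2).

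Among dendritic cell genes, Flt3 and Clec9a were higher and Mgl2 was lower, of 18 tested members with a median of 0.75. Over all genes tested, 0.29% were higher and 0.243% lower. Flt3, the growth factor receptor of dendritic cells, was at 91.6 and 93.1 CPM in the female and male crush samples, against 30.1 and 27.5 CPM in the female and male sham samples, a log2 change of 1.70 ± 0.28 (SE, adjusted p = 0.0376). Clec9a, a receptor for dead cells on cross-presenting dendritic cells, had 42 and 70 UMIs after crush and none after sham. With UMIs taken as independent it was at least 5.54-fold higher (edgeR adjusted p = 0.0410). Without thinning it was in 15 and 32 crush cells, or 4.53% and 5.29%, and in 0% and 0% of the sham cells. After thinning the crush shares were 2.36% and 2.61%, against 5 of 497 of the macrophage-gated crush cells, and were below the 5.26% and 3.12% that the sham counts of 0 allow. Xcr1, a chemokine receptor of the same cells, had 25 and 73 UMIs after crush and 1 after sham, a ratio of 14.5 (interval 2.55 to 579.7), and missed the threshold (edgeR adjusted p = 0.240). Wdfy4, which takes part in cross-presentation, was at 126 and 133 CPM after crush against 38.6 and 66.3 CPM after sham (log2 change 1.21, adjusted p = 0.0949). No call of this list was made without the crush male, the sham female or the sham male. Clec9a was called in none of the 4 fits that left out a sample.

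In the MHC class II list, of 12 tested members, H2-Oa alone was higher and none was lower, beside 0.29% and 0.243% of all genes tested. H2-Eb1, a chain of the classical I-E molecule, was at 4570.3 and 5778 CPM in the female and male crush samples, against 5096 and 4879 CPM in the female and male sham samples, and the pairs overlapped (log2 change 0.05, SE 0.17, adjusted p = 0.969). H2-Oa, which encodes a chain of the DO molecule that tempers peptide loading, was at 119.5 and 143 CPM after crush against 30.1 and 37.2 CPM after sham (log2 change 1.92, SE 0.29, adjusted p = 0.0298). Ciita, the master regulator of these genes, was at 248 and 268 CPM after crush against 129 and 184 CPM after sham (log2 change 0.69, adjusted p = 0.302), and Ctss, the cathepsin that trims the invariant chain, was at 1795 and 2826 CPM after crush against 1039 and 1109 CPM after sham (log2 change 1.10, adjusted p = 0.0695). The median of the list was 0.06, and H2-Oa lost its call without the crush male, the sham female or the sham male.

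Alox15, the 12/15-lipoxygenase that eosinophils and some macrophages express, had 57 and 126 UMIs in the crush female and male and none in the sham samples. With UMIs taken as independent it was at least 9.04-fold higher (edgeR adjusted p = 0.0410), but they were held by 19 and 49 cells. Ccr3, the eotaxin receptor of eosinophils, had 31 and 106 UMIs in 17 and 42 cells after crush and none after sham. Its bound by UMIs was 6.77-fold, and it did not pass (edgeR adjusted p = 0.556). Without thinning, cells with a UMI of Ccr3, Siglecf or Il5ra made up 9.06% and 10.2% of the crush cells. They were 0 of 63 in the sham female and 2 of 106 in the sham male, whose cells were shallower than the crush cells. Alox15 was in 5.74% and 8.10% of the crush cells and 0% and 0% of the sham cells without thinning, and in 1.35% and 1.87% of the crush cells after thinning, which kept 22 of the 67 eosinophil-gene cells outside the gate in the crush pair. It was in 10 of 497 gated crush cells and 3 of 22 of the eosinophil-gene cells. In the eosinophil list 4 members could be tested, 1 was higher and none lower, beside 0.29% and 0.243% of all genes tested. The list, which also holds the macrophage gate gene Adgre1, summed to 165 and 218 CPM in the female and male crush samples (plain totals). For sham the sums were 231 CPM in the female and 95.5 CPM in the male, so the groups overlapped. Of its 10 members, 7 had no UMI in the sham pair. Without cells that hold a UMI of the 3 marker genes, 27 genes were higher and 25 lower, 45 of the 46 calls among them. The call that was lost was that of Alox15, which could not be tested in the remaining cells.

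Gzma, granzyme A of cytotoxic lymphocytes, had 76 and 118 UMIs after crush and none after sham (edgeR adjusted p = 0.0301). These UMIs were held by 2 cells of the crush female and 5 cells of the crush male. With so few cells, a floor in UMIs sets no least fold change. Nkg7, a granule protein of the same cells, was found in 2 and 5 cells as well (edgeR adjusted p = 0.458). Il2ra, the interleukin 2 receptor chain, was at 10.5 and 18.7 CPM after crush against 4.29 and 4.85 CPM after sham (log2 change 1.66, adjusted p = 0.384). Of the 16 lymphocyte genes, 13 had no UMI in the sham pair and 1 none in any of the 4 samples.

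**Figure D3:**
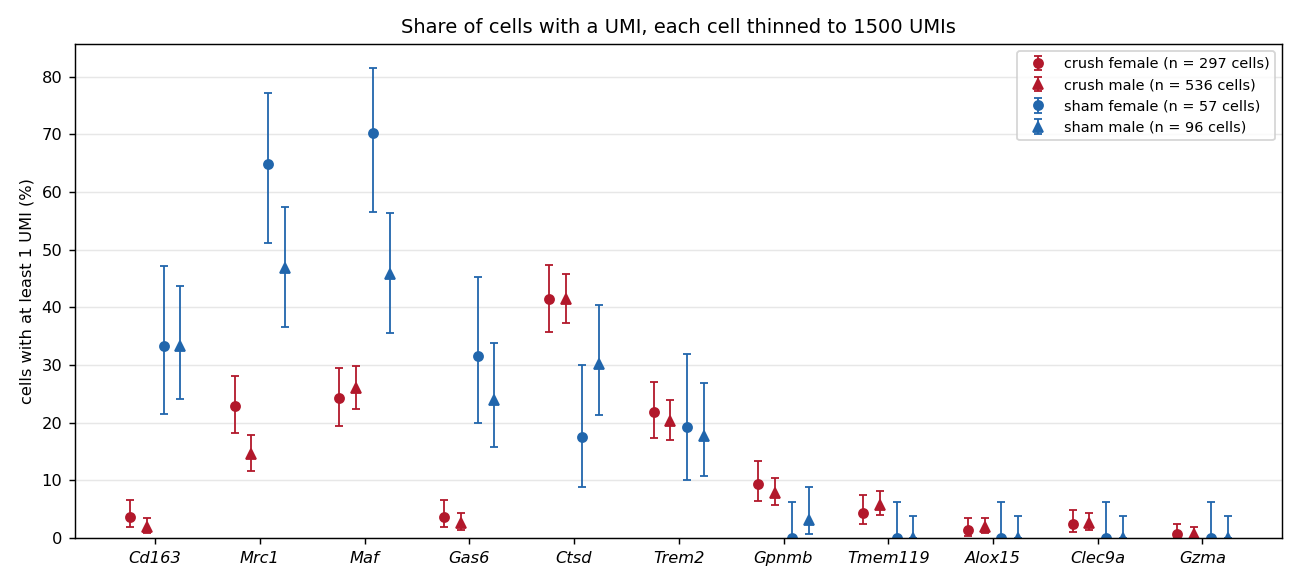
Share of cells with at least 1 UMI of each gene in each hashtag sample, in percent, after thinning every cell to 1500 UMIs; bars are 95% exact binomial intervals, circles are females and triangles males, crush in red and sham in blue. Cd163 lies at 3.70% and 1.87% after crush and at 33.3% in both sham samples, whereas the intervals of Trem2 overlap and the shares of Alox15, Clec9a and Gzma lie below what the sham counts of 0 allow.

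No monocyte gene passed the threshold. Ly6c2, a marker of classical monocytes whose reads may be shared with its near copy Ly6c1, was at 40.1 and 264 CPM in the female and male crush samples, against 8.59 and 25.9 CPM in the female and male sham samples. Plac8 was at 128 and 651 CPM in the female and male crush samples, against 4.29 and 124 CPM in the female and male sham samples. In both genes the crush male stood well above the crush female, so that the spread within crush was large (log2 changes 2.92 and 2.36, adjusted p = 0.550 and 0.641). Ccr2, the monocyte chemokine receptor, was at 524 and 607 CPM after crush against 408 and 394 CPM after sham (log2 change 0.50, adjusted p = 0.463). Of 14 tested members of the list, 5 had both crush samples above both sham samples and none below, beside 20.2% and 21% of all genes tested.

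Interferon-stimulated genes were high in the crush male and not in the crush female. Irf7, a transcription factor of the interferon response, was at 11.8 and 285 CPM in the female and male crush samples, against 12.9 and 19.4 CPM in the female and male sham samples. Oasl2, an antiviral protein, was at 20.1 and 278 CPM in the female and male crush samples, against 30.1 and 17.8 CPM in the female and male sham samples. Bst2, which encodes tetherin, was at 192 and 1064 CPM after crush against 129 and 165 CPM after sham. The crush male exceeded each other sample by over 4 times in all of these, while the crush female lay near the sham pair. None of the 12 tested members passed (adjusted p from 0.548 for Bst2 to 0.691 for Irf7 in these 3 genes). The median of the list was 1.98, and -0.30 without the crush male. Without the crush female, so that the crush male stood alone and was assumed to vary like the other groups, 14 of 15 tested members were called higher. After thinning, Irf7 was in 1.35% and 34.5% of the crush cells and 1.75% and 3.12% of the sham cells, and without thinning in 7.55% and 59.0% of the crush cells and 4.76% and 6.60% of the sham cells.

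In all, 33 gene lists were looked up and 32 had a tested member. In 17 of these no member passed, among them the neutrophil, monocyte, MHC class I, chemokine ligand, inflammatory cytokine, matrix and protease, glycolysis, cell cycle and oxidative phosphorylation lists. Tnf was at 14.4 and 16.3 CPM after crush against 17.2 and 29.1 CPM after sham (log2 change -0.71, adjusted p = 0.493). S100a8, a neutrophil protein, was at 312 and 499 CPM after crush against 172 and 1274 CPM after sham (log2 change -0.86, adjusted p = 0.866), with the sham male the highest. Of the 18 tested cell cycle genes, 8 had both crush samples above both sham samples and none below, with a median of 0.51. Over all genes tested the shares above and below were 20.2% and 21%. Csf1r, the receptor of macrophage colony-stimulating factor, was at 289 and 419.5 CPM after crush against 665 and 388 CPM after sham and overlapped between the groups. Among markers of cells that the sort should leave out, the summed levels of the Schwann cell list ranged from 94.1 to 129 CPM after crush and from 104 to 186 CPM after sham, and those of the fibroblast list from 198 to 235 and from 166 to 239 CPM. The neutrophil list summed to 1089.8 and 2120.0 CPM in the female and male crush samples, and to 530.4 CPM in the sham female and 3824 CPM in the sham male. No member of these 3 lists was called.

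**Figure D4:**
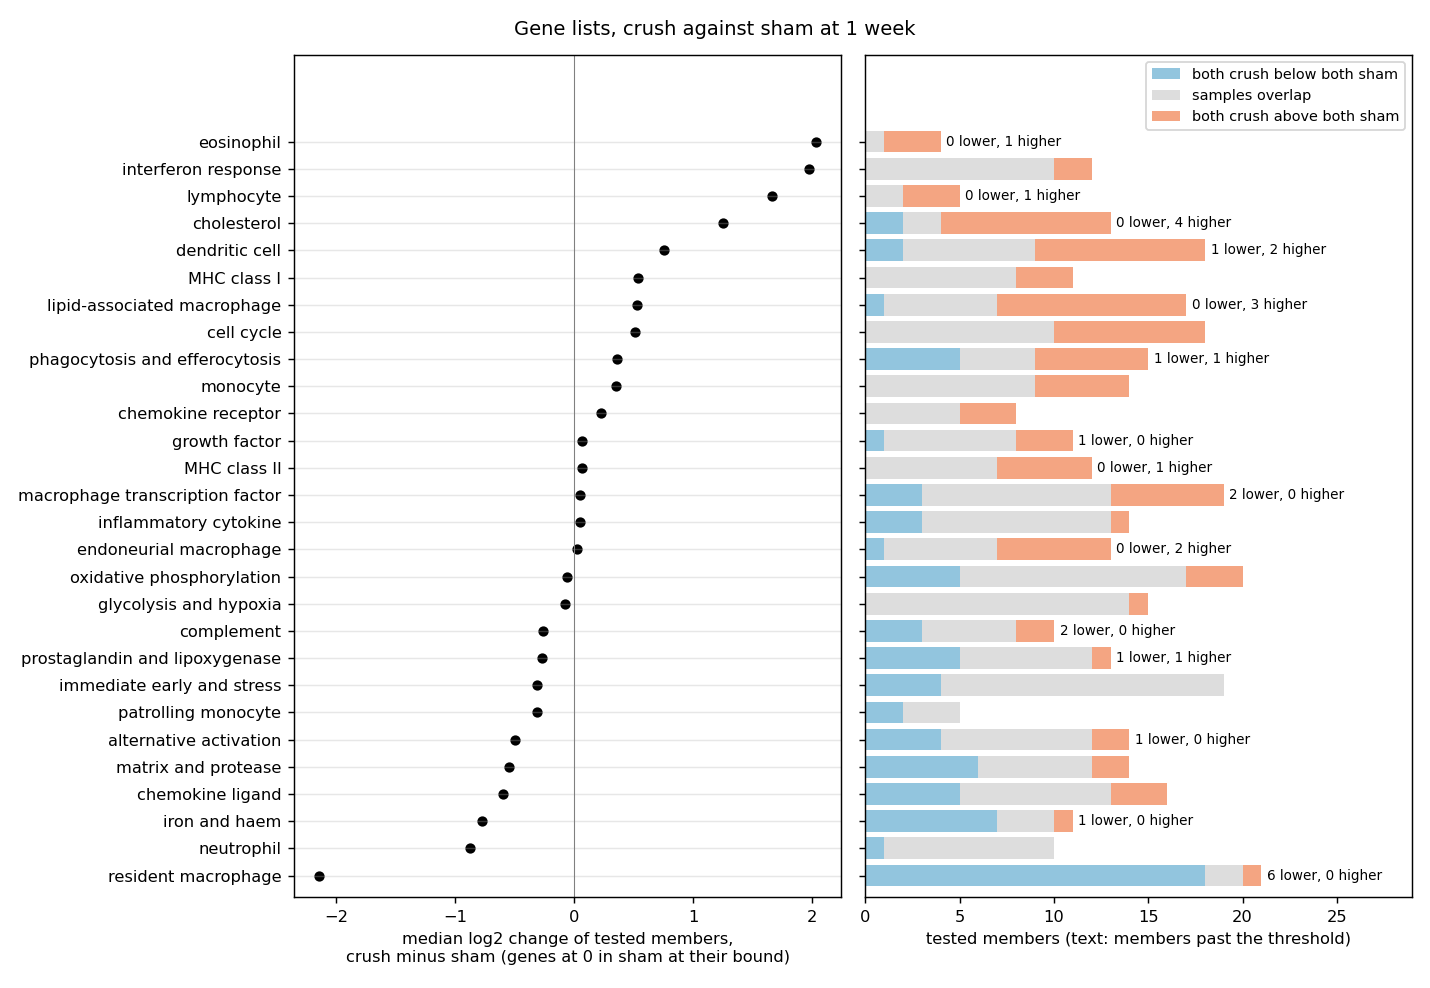
Gene lists with at least 4 tested members. The left panel gives the median log2 change of the tested members, with genes at 0 in the sham pair set at their lower bound; the right panel gives the number of tested members whose crush samples lay below, overlapped with or lay above the sham samples, and the text beside a bar gives the members past the threshold. The resident macrophage list has the lowest median, -2.14, and 6 lower members, and the cholesterol list has 4 higher members.

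To hold the broad cell type fixed, the fit was repeated on cells with UMIs of at least 2 of 8 macrophage genes, among them C1qa, C1qb, C1qc, Adgre1, Csf1r, Fcgr1 and Mertk. This gate kept 171 cells of the crush female, 354 of the crush male, 51 of the sham female and 71 of the sham male, or 51.7, 58.5, 81.0 and 67.0% of their cells. Of 7253 genes tested, 0.358% were higher and 0.221% lower, which is 26 and 16 genes. Of the 46 genes called over all cells, 41 could be tested in gated cells, all 41 kept their direction, and 29 were also called. The gated cells are part of all cells, so the fits share counts and this is no independent support. The gate was set without thinning, although sham cells were shallower. The log2 change of Cd163 was -3.92 ± 0.31 in gated cells (SE, adjusted p = 0.00216), that of Ctsd 2.80 ± 0.32 (adjusted p = 0.00966) and that of Trem2 1.77 ± 0.22 (adjusted p = 0.01). Abca1 and Abcg1 were called there too (log2 changes of 1.60 and 2.13). Gas6 and Maf were not (adjusted p = 0.0574 for both), nor was Flt3 (adjusted p = 0.355), while Alox15, Clec9a and Gzma could not be tested. Plin2 (1.37, adjusted p = 0.0411) and Ctss (1.43, adjusted p = 0.0283) passed in gated cells but not over all cells. Whether the change differed between gated and other cells was not tested.

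**Figure D5:**
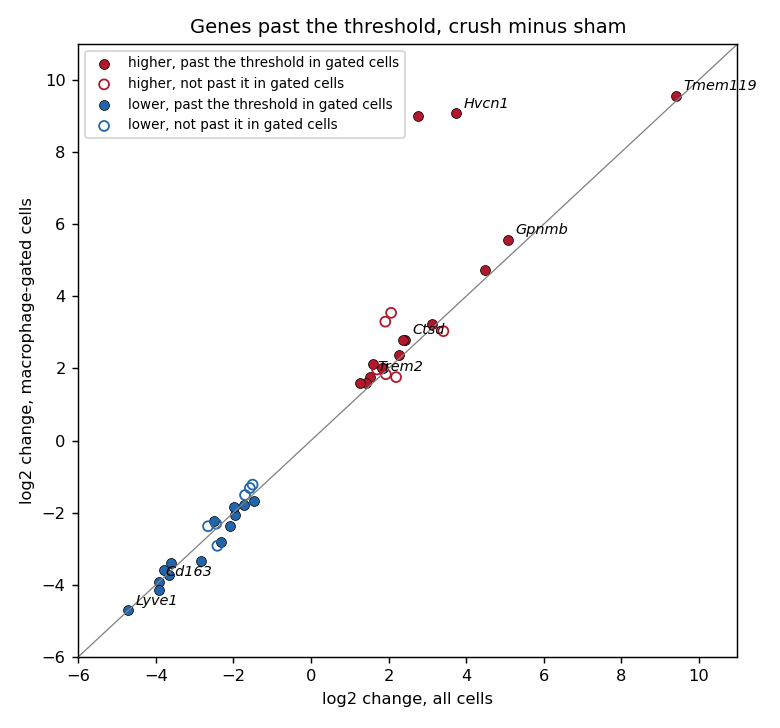
Log2 change, crush minus sham, in macrophage-gated cells (vertical axis) against that in all cells (horizontal axis) for the 41 called genes that could be tested in both; filled points also passed in gated cells. All 41 points lie in the quadrants of equal sign, and the 2 points far above the line, Hvcn1 among them, as well as Tmem119, have no UMI in the gated sham cells, so their fitted change has no upper limit.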

How the data were processed

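Single-cell RNA of sorted nerve myeloid cells was read on the 10x platform with hashtag antibodies. Each matrix the authors deposited has unnormalized UMI counts for 31053 genes and for the antibodies, per cell barcode, from Cell Ranger 6.0.0 on GRCm38 per the labels and the file headers; whether intronic reads were counted is not given in the sources used here. The crush library held 1920 barcodes, of which 1441 passed the cell filter, 388 of these had several positive tags and 11 none; for the PSNL library the numbers were 2471, 2100, 621 and 10. A tag was positive above 42, 115 and 123 UMIs (HTO_AHH01, 02, 03) in the crush library and above 50, 85 and 93 in the PSNL library. No kept cell barcode was shared by the libraries. Scrublet marked 4 and 2 cells, too few to serve for doublet removal, and doublets were handled by leaving out cells with several tags.

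Counts were summed per tag, filtered by filterByExpr on the 4 samples, normalized by TMM and tested with edgeR 4.0.16 (robust quasi-likelihood fit, R 4.3.3), with the 6 samples of 1 week in 1 fit (3 residual and a median of 6.74 prior degrees of freedom) and Benjamini-Hochberg adjustment over all genes tested. Replicate samples differed by more than sampling noise (chi-square per degree of freedom 16.9 for crush, 6.42 for sham). Alternatives used DESeq2 1.42.0, Seurat 5.3.0 (HTODemux at a quantile of 0.99), scanpy 1.11.5, other filters, terms and cells, and each sample left out. Bounds use 3 UMIs over the sham pair. Bounds and counting intervals take UMIs as independent. Where a few cells hold many UMIs of a gene, the bound is too high and the interval too narrow. Named genes were the 10 largest rises and 10 largest falls among called genes whose groups are apart and whose mean is at least 50 CPM, up to 4 members of each of 33 lists by p, and genes the study names; Folr2, Plin2, Npc1, Mylip, Xcr1, S100a8, Cbr2, F13a1, Apoe and the remaining called genes were added after their values were seen. The members, lists and tests were chosen with earlier results of these data known. Gene positions are those of GENCODE M21. Some genes are not reported here, and the counts over all genes and lists include them.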

Additional observations from a re-analysis of the deposited data

Results flagged for a closer look

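In 8 of the genes given above the female and the male pair moved in opposite directions, and this difference was not tested, since each sex has 1 crush and 1 sham sample. The log2 ratio of crush to sham CPM was -0.13 in the females and 3.88 in the males (male minus female 4.01) for Irf7, -0.58 in the females and 3.97 in the males (male minus female 4.55) for Oasl2 and -1.20 in the females and 0.11 in the males (male minus female 1.32) for Csf1r. It was -0.16 in the females and 0.24 in the males (male minus female 0.40) for H2-Eb1. Ratios above sham in the females and below it in the males were found for Fabp5, at 1.03 in the females and -1.36 in the males (male minus female -2.39), for Atf3, at 0.88 in the females and -1.36 in the males (male minus female -2.24), for S100a8, at 0.86 in the females and -1.35 in the males (male minus female -2.21), and for Lgals3, at 0.59 in the females and -0.03 in the males (male minus female -0.62). The female pair spans both libraries and the male pair lies within the crush library, so sex and library coincide in the sham samples. The crush female and the crush male share a library. For Irf7 the female and male crush samples were at 11.8 and 285 CPM, and the sham samples at 12.9 and 19.4 CPM. For Oasl2 they were at 20.1 and 278 CPM after crush and 30.1 and 17.8 CPM after sham. The cause of these differences was not tested. None of these 8 genes was called over both sexes. Groups of 2 samples are too small for a check of single outlying samples.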

How the results depend on the processing

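The 44 called genes followed singly kept their direction under all 20 alternatives in which they were tested, and each passed in 7 to 18 of them. The count of called genes, 46, became 1 with only the 4 compared samples in the fit, 20 with the 15 week samples added, 104 with DESeq2, 487 with no filter on low counts, 6 with the library as a term, 28 with a tag at least 3 times the next, 99 with cells of at least 200 genes and under 20% mitochondrial UMIs, and 28 without the 6% of cells with the highest Scrublet scores; leaving out 1 sample gave 13 to 267. The calls split as 25 higher and 21 lower in the report, 14 and 51 with HTODemux and 16 and 22 with sex as a term. No paired analysis was possible because the hashtag labels carry no replicate numbers, and sex as a term stood in for one. Without a filter the median change of all genes was 0.16, and without the sham male 0.11. HTODemux gave the sham female 132 cells with 24 Ddx3y UMIs, against 63 cells with none. Genes that were not called and turned direction were Spp1 (-1.24), Plin2 (-0.047) and Lgals3 (-0.79) with HTODemux, Fabp5 (0.023) with the looser cell filter, and H2-Eb1 (-0.018) and Fabp5 (2.76) in gated cells. With 1 sample left out, log2 changes ran over -0.0063 to 0.61 (Lgals3), -0.087 to 0.22 (H2-Eb1), -0.055 to 3.70 (Oasl2), -0.51 to 4.04 (Irf7), -0.95 to 0.46 (Atf3), -0.90 to 0.59 (Fabp5) and -1.66 to 1.29 (S100a8). The cause of these changes was not tested. The crush minus sham share of cells, in percentage points, was -30.5 for Cd163 (-39.5 without thinning, -27.4 at 1000 UMIs, -25.3 with HTODemux), 7.07 for Gpnmb (9.77 without thinning), 17.5 for Ctsd (10.2 without thinning, 9.32 with HTODemux), 5.08 for Tmem119 (11.7 and 2.25 without thinning and at 1000 UMIs), 1.61 for Alox15 (6.92 and 2.78) and 2.48 for Clec9a (4.91, 1.46, and 1.98 with HTODemux). The sham pair, with 169 cells, sets the depth: a gene at 0 there gives at best a lower bound.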

Other observations

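For some genes the level of a sample rested on very few cells. In the crush female a single cell held 1401 of 2484 Spp1 UMIs, and without it the plain CPM of that sample was 487. In the crush male a single cell held 680 of 1528, and without it the CPM was 239.6. In the sham male it was 40 of 47, and the CPM without it was 11.5. Fabp5, a fatty acid binding protein, had 171 of 447 UMIs of the sham male in a single cell and 67.8% in the top pair of cells. S100a8 had 37 of 40 UMIs of the sham female in a single cell. The highest cell held at most 22.2% of the Cd163 UMIs and at most 21.1% of the Ctsd UMIs of any of the 4 samples.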
